A study of Xenopus allofraseri with 8 samples.

Results

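In the pooled transcriptome assembly of *Xenopus allofraseri* leg muscle, 29 of 163981 Trinity genes were split into 20 or more isoforms, and these genes are described here. A Trinity gene is a cluster of assembled transcripts that share sequence, and an isoform is 1 transcript of such a cluster. The members were found from the transcript names, by counting the isoforms listed under each gene, and no expression value entered that rule. The isoform number itself comes from an assembly of the pooled reads of these same frogs. Earlier results of these data were known when the rule was set. A gene with 25 isoforms was left out because its longest transcript spanned 147149 bases, above the limit of 20000 bases. The 29 genes held 639 of the 218541 transcripts (0.292%).

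The study compared 4 endurant males (frogs A, D, E and G) with 4 burst-performant males (frogs B, C, F and H), caught in the wild in a single pond and then kept in aquaria. The traits behind these labels were the distance and time moved until exhaustion and the peak speed and acceleration of swimming, and a clustering of these same frogs on the traits defined the groups. Neither the labels nor the study name a genotype, drug or training that separated them. RNA from a knee extensor, the thigh muscle that straightens the leg, gave 1 polyA library per frog, sequenced as read pairs, and Kallisto estimated the abundance of every transcript. Throughout, values of single frogs are given in the order A, D, E, G for endurant frogs and B, C, F, H for burst-performant frogs.

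A real gene can give several transcripts through alternative promoters, splicing and polyadenylation. In an assembly without a genome, the isoforms of a Trinity gene can also be alleles that differ between wild animals, duplicated gene copies, which are common in the polyploid genus *Xenopus*, or incomplete assembly paths. Kallisto divides a read pair that fits several isoforms between them by likelihood, so that the counts of near-identical isoforms are estimates and their separation is uncertain.

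The libraries held between 4449192 (frog H) and 17359253 (frog E) estimated counts, and precision is therefore lowest in frog H. Depth here means estimated counts, which did not follow the read pairs that the study lists. By read pairs, frog C was the deepest library. Frogs C and D, 1 of each group, had far fewer counts for their read pairs (9120121 and 4715751 counts) than the other frogs. The reason was not tested. The muscle genes tmod4 (tropomodulin, which caps actin filaments), mybpc2 (a myosin-binding protein of fast muscle) and lmo7 were present in all frogs, at totals of 110 to 300, 111 to 373 and 72.3 to 135 CPM (counts scaled to library size by the trimmed mean of M-values). In contrast, fsd2 was listed at 0 CPM in the 4 endurant frogs and in frog H, and at 6.37, 6.65 and 3.70 CPM in frogs B, C and F. These symbols were inferred from the study's list of transcripts selected as differing between the same groups. A group contrast in these genes is therefore no independent result. List entries were matched to Trinity transcripts by direction, log2 fold change and adjusted p of the edgeR exact test run here, not by sequence. In a muscle sample, fewer cells of a type and less RNA per cell cannot be told apart. Each library came from a separate animal, and p-values set the difference between groups against the spread of these 8 frogs. For isoforms, that spread also holds the uncertainty of dividing read pairs between them.

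The 29 genes had 20 to 31 isoforms. 7 of them had exactly 20, and 14 further Trinity genes stopped just below the limit with 19. Their isoforms were long, with a median of 1140 bases (range 227 to 7007), compared with 378 bases over all transcripts. Many isoforms were seen in a few frogs only. A count of at least 1 was found in some frog for 582 of the 639 isoforms, in a single frog for 79, in all 8 frogs for 51, and in none for 57. The number of isoforms with a count was 276, 259, 350 and 310 in endurant frogs, against 347, 265, 369 and 191 in burst-performant frogs. The lowest number belonged to the shallowest library (frog H), and the 2 groups overlapped.

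Frogs seldom agreed on which isoform of such a gene was the most abundant. The share of an isoform is its percentage of the summed TPM (a count corrected for transcript length and library size) of its gene, and the dominant isoform of a frog is the one of highest share. Shares were compared for the 23 members with at least 20 estimated counts in every frog. In 1 of these genes (4.35%) the same isoform was dominant in all 8 frogs, in 2 genes it was so in 7 frogs, and 12 genes had 4 or more different dominant isoforms among the 8 frogs. The median dominant share was 35.1%. A median of 6.71 isoforms, counted as the exponential of the Shannon entropy of the shares, were effectively used in a frog, and a median of 12 isoforms was needed to reach 90% of a gene when ranked by mean share. An isoform above 10% in 1 frog and below 1% in another was found in 22 of the 23 genes (95.7%), with 195 such isoforms in all. This was not particular to them, as 472 of 491 genes with 10 to 19 isoforms (96.1%) and 89.3% of those with 5 to 9 had one too.

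**Figure D1:**
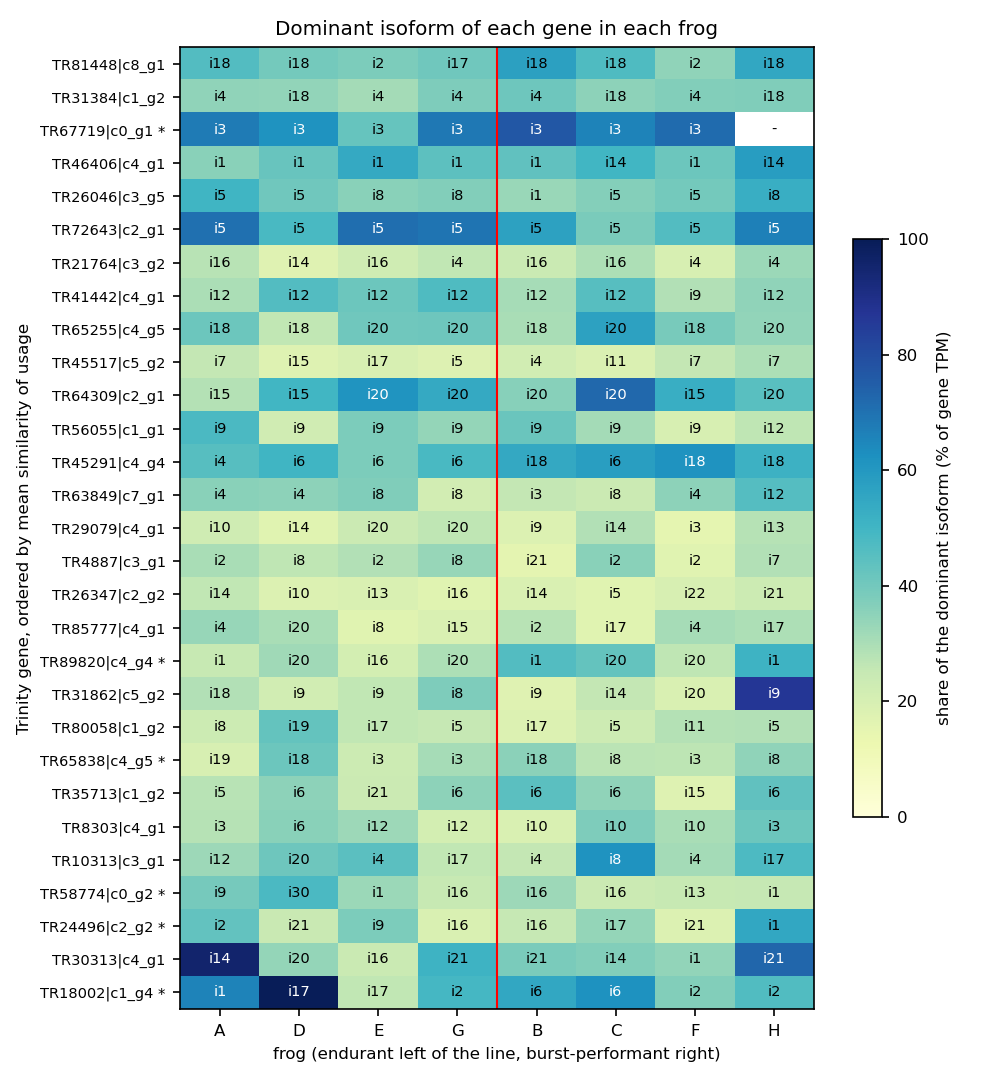
Dominant isoform (text) and its share of the gene's TPM (colour, %) in each of the 8 frogs (columns, endurant left of the line, burst-performant right) for the 29 genes (rows, ordered by mean similarity of usage). An asterisk marks the 6 genes under 20 estimated counts in some frog, a dash marks the frog without counts, and TR72643 is the only gene with at least 20 counts in every frog that keeps 1 dominant isoform in all 8.

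Across the assembly, agreement on the dominant isoform was higher, and effective isoform numbers lower, in classes with fewer isoforms. A common dominant isoform in all 8 frogs was found for 63 of 491 genes with 10 to 19 isoforms (12.8%), 430 of 1976 genes with 5 to 9 (21.8%) and 1491 of 3182 genes with 2 to 4 (46.9%), each with the same count limit. Effective isoform numbers were 5.17, 3.38 and 1.89 in these 3 classes. The median dominant share did not follow that order throughout, at 35.0% for genes with 10 to 19 isoforms, then 46.2 and 70.2%. These figures are given as a description, with no test. The classes are cut by isoform number, which caps the effective number. Fewer isoforms can also raise agreement by themselves. The order of the classes was therefore partly set in advance. The isoform of highest mean share was the longest one in 2 of the 23 genes (8.70%), against 78 of the 491 genes with 10 to 19 isoforms (15.9%). Among nonzero counts of the 29 genes, 88.0% were not whole numbers (tolerance 0.001), as Kallisto divides read pairs between transcripts, and the value was 89.5% for genes with 10 to 19 isoforms.

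To compare whole profiles, the similarity of 2 frogs was taken as the overlap of their shares, which is 100% for identical usage and 0% where no isoform is shared. Over all 28 pairs of frogs, the median similarity of the 23 genes was 46.7%, against 57.3%, 68.9% and 83.6% for genes with 10 to 19, 5 to 9 and 2 to 4 isoforms. This order, too, can come from the isoform number itself. Frogs of the same group were about as different from each other as frogs of different groups. Median similarity was 46.6% within groups and 45.5% between groups, and the value between groups lay below that within groups in 9 of the 23 genes and at or above it in 14. The pair with the highest median similarity was E and G (66.3%, both endurant), and the pair with the lowest was A and D (39.3%), also both endurant.

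Similarity moved with depth. The 10 genes with at least 100 counts in every frog ranged from 46.7% to 78.9%, with a median of 67.2%, whereas the other genes of the 23 did not go above 52.5%. Frog H, the shallowest library, had the highest median dominant share of the 8 frogs (41.0%) and the lowest effective number of isoforms (4.66). Frog D, almost as shallow, had the next lowest effective number (5.83). Its dominant share (34.9%) was not raised in the same way and lay below that of frog C (35.7%). The part of depth in the low similarity of the weakly covered genes was not tested beyond these values.

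**Figure D2:**
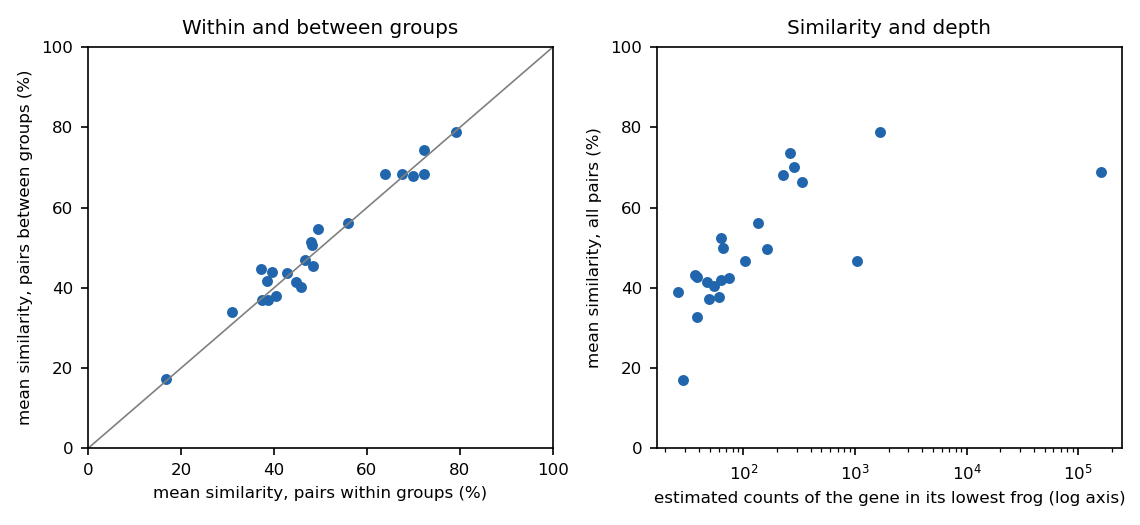
Mean similarity of isoform usage between frogs for the 23 genes with at least 20 estimated counts in every frog (points). Left, pairs of frogs within groups (x, %) against pairs between groups (y, %), where points lie on both sides of the line of equal values (medians 46.6% and 45.5%); right, similarity over all pairs (%) against the counts of the gene in its lowest frog (log axis).

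The choice between TPM and counts mattered for the dominant isoform, because TPM divides counts by length and raises short isoforms. The isoform dominant in most frogs differed between the 2 measures in 11 of the 23 genes. TR31384|c1_g2 is an example. By TPM its dominant isoform was i4 (1068 bases) in 5 frogs and i18 (237 bases) in 3 frogs, D, C and H. In those 3 frogs i18 had shares of 34.1, 35.0 and 37.5% that rested on 10, 8 and 6 counts. By counts, i7, its longest isoform (4597 bases), was dominant in all 8 frogs, with 301, 174, 630 and 520 counts in endurant frogs and 506, 165, 732 and 111 counts in burst-performant frogs. TR31384 had the second highest similarity of the 23 genes, 73.5%.

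The most abundant of the 29 genes by a wide margin was TR26046|c3_g5, which has 21 isoforms of 227 to 2650 bases. Its total was 25398, 36150, 30080 and 27384 CPM in endurant frogs, against 16929, 25158, 15050 and 45714 CPM in burst-performant frogs. The groups overlapped, as frog H exceeded every endurant frog, and the log2 fold change of the total was 0.21 ± 0.40 (SE). By TPM the total was 20099, 20451, 18907 and 20857 in endurant frogs, against 8072, 11515, 9690 and 20154 in burst-performant frogs. There, frogs B, C and F lay below every endurant frog, and frog H lay among the endurant frogs. Most counts of the 29 genes came from TR26046: together they took 3.0, 3.55, 3.14 and 3.28% of all counts in endurant frogs, and 1.82, 2.07, 2.09 and 3.73% in burst-performant frogs. Of all TPM they took 2.10, 2.12, 1.96 and 2.18%, against 0.888, 1.23, 1.06 and 2.09%. No gene name is given for TR26046.

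Usage of TR26046 fell into patterns that crossed the groups. Isoform i8 (1217 bases) held 26.7, 35.9 and 36.9% of the gene in frogs D, E and G, against 29.7 and 52.7% in frogs C and H, with between 39615 and 195529 counts in each of these 5 frogs. In frog A, against frogs B and F, the same isoform held 0.122%, against 0.223 and 0.315%, from 299, 409 and 616 counts. Thus 1 endurant and 2 burst-performant frogs all but lacked i8, and the groups were not separated by its mean share (24.9 ± 17.2% and 20.7 ± 25.4%, SD, n = 4 each, exact permutation p = 0.83, two-sided).

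Of the other leading isoforms of TR26046, i5 (656 bases) held 50.3, 40.4, 35.8 and 36.3% in endurant frogs, against 28.9, 36.7, 39.8 and 14.7% in burst-performant frogs. The longest, i1 (2650 bases), held 19.8, 24.6, 14.9 and 15.2% against 33.0, 22.04, 37.7 and 19.98%. Both sets overlapped between groups (exact permutation p = 0.200 and 0.114). By contrast, i15 (1119 bases) held 1.15, 2.52, 3.42 and 3.33% in endurant frogs and 28.7, 3.57, 15.6 and 5.50% in burst-performant frogs. All endurant shares of i15 lay below all burst-performant shares (exact permutation p = 0.0286, the smallest that 4 against 4 can give), although frog E (3.42%) and frog C (3.57%) were close to each other. This isoform was named after its values were seen. Among isoforms of the 29 genes with a mean share of at least 1%, 1.75% had no overlap, against 2.69% over all genes. The edgeR test of its usage within the gene gave an unadjusted p of 0.135. The highest i15 shares stood in frogs B and F, 2 of the 3 frogs that all but lacked i8.

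Frog A stood apart by 2 further isoforms of TR26046. It held 14.2% as i13 (657 bases), against 1.20, 4.85 and 4.11% in the other endurant frogs and 1.49, 3.27, 0.888 and 1.14% in burst-performant frogs. It also held 9.70% as i6 (828 bases), with 14709 counts. The remaining endurant frogs had 14, 32 and 0 counts of i6, and burst-performant frogs had 0, 18, 0 and 0. By TPM, the dominant isoforms of the gene were i5, i5, i8 and i8 in endurant frogs and i1, i5, i5 and i8 in burst-performant frogs. By counts, they were i1, i1, i8 and i8 in endurant frogs and i1, i1, i1 and i8 in burst-performant frogs. Similarity was highest between E and G (97.8%) and lowest between A and H (41.1%).

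**Figure D3:**
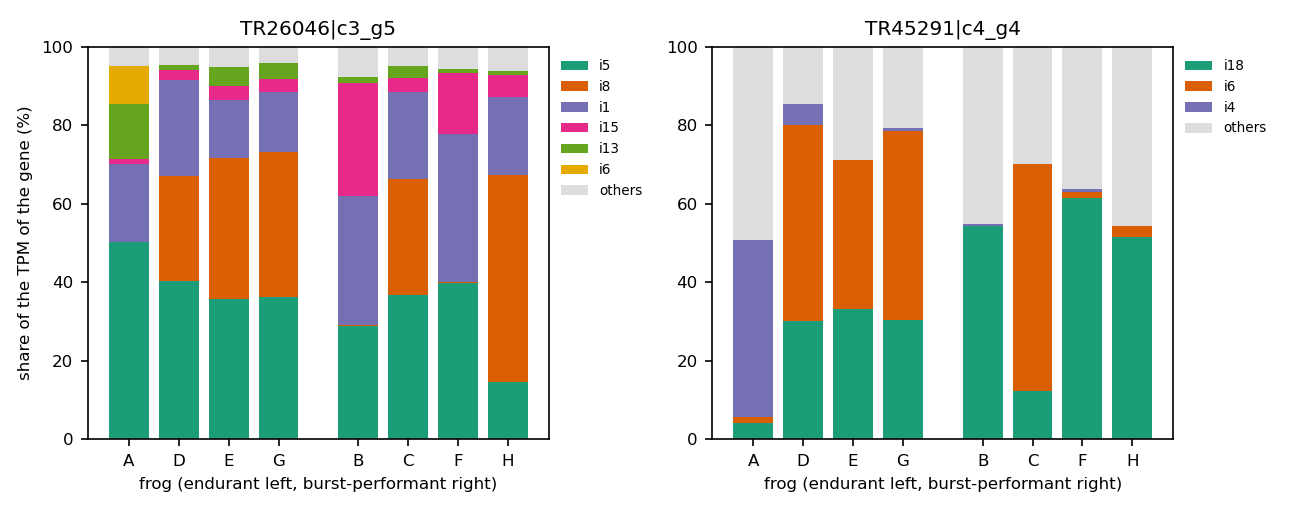
Isoform shares (% of the gene's TPM, stacked to 100) in each frog for TR26046|c3_g5 (left) and TR45291|c4_g4 (right), endurant frogs left and burst-performant frogs right in each panel. In TR26046 the i8 segment is nearly missing in A, B and F, and in TR45291 the i6 segment is large in D, E, G and C and at most 2.93% in the other frogs.

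A similar crossing of the groups appeared in TR45291|c4_g4, an abundant gene (465, 233, 357 and 364 CPM in endurant frogs, 457, 365, 412 and 451 CPM in burst-performant frogs) whose main isoforms are all 5967 to 6021 bases long, and TPM and counts named the same dominant isoform in every frog. Isoform i6 (6018 bases) held 1.42, 50.1, 38.1 and 48.3% in endurant frogs, against 0, 58.0, 1.45 and 2.93% in burst-performant frogs. Isoform i18 (5970 bases) held 4.09, 30.1, 33.2 and 30.3% in endurant frogs, against 54.5, 12.2, 61.4 and 51.4% in burst-performant frogs. Both shares overlapped between groups, with differences within the spread of the frogs (exact permutation p = 0.457 and 0.114). Frog A used little of either: 45.4% of its TR45291 was i4 (5967 bases, 1891 counts), which did not exceed 5.16% elsewhere. The similarity of TR45291 was 46.7% in spite of at least 1040 counts in every frog, the lowest value among the 10 well covered genes.

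Other abundant genes kept their main isoforms in most frogs. In TR72643|c2_g1, i5 (2212 bases) was dominant in all 8 frogs, with 70.3, 48.1, 70.9 and 69.3% in endurant frogs and 56.7, 38.6, 46.4 and 66.6% in burst-performant frogs. The groups overlapped (exact permutation p = 0.171). TR81448|c8_g1 had the highest similarity of all 23 genes, 78.9%, and 3 isoforms reached 90% of its mean share. Its i18 (1172 bases) held 46.3, 39.6, 25.3 and 25.5% in endurant frogs, against 57.0, 47.2, 28.2 and 54.8% in burst-performant frogs (exact permutation p = 0.171). Frogs E and F had i2 (1206 bases) and frog G had i17 (578 bases) as the dominant isoform.

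In TR46406|c4_g1 a pair of isoforms of almost equal length traded places. Isoform i1 (2278 bases) held 35.8, 42.0, 54.2 and 44.2% in endurant frogs, against 43.6, 17.6, 41.4 and 18.2% in burst-performant frogs. Isoform i14 (2255 bases) held 25.6, 23.9, 32.7 and 34.0%, against 23.0, 49.7, 39.9 and 58.4%. The dominant isoform was therefore i14 in frogs C and H and i1 in the other 6, and both shares overlapped between groups (exact permutation p = 0.171 for each). TR21764|c3_g2 spread its expression more evenly, over a median of 9.57 effective isoforms, yet had a similarity of 66.4%. Its leading isoform i16 (3922 bases) ranged from 13.6 to 27.6% in endurant frogs and from 18.1 to 29.4% in burst-performant frogs.

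By TPM, TR64309|c2_g1 changed between a longer and a short isoform. Isoform i20 (1742 bases) held 24.7, 22.6, 61.3 and 54.1% in endurant frogs, against 36.0, 72.6, 5.55 and 45.0% in burst-performant frogs. Isoform i15 (459 bases) held 28.5, 49.7, 7.07 and 6.35%, against 29.9, 0, 52.6 and 0%. Frogs of both groups were found at both ends (exact permutation p = 0.971 and 0.771). By counts, i20 was dominant in 7 frogs and i8 in frog F, so the change to i15 was seen in TPM only.

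Only 2 isoforms of the 29 genes could be joined to a symbol, through the annotation list that accompanies the study. The match used direction, log2 fold change and adjusted p of the edgeR exact test, not sequence, so these symbols are inferred. The list annotates transcripts that the authors selected as differing between these same groups, so these isoforms are no independent sample. TR41442|c4_g1_i10 was matched to the entry slc47a2, a member of the multidrug and toxin extrusion family of membrane transporters. It had 1, 1, 0 and 0 counts in endurant frogs, against 31, 16, 20 and 7 counts in burst-performant frogs, without overlap. Its share of the gene was 0.206, 0.612, 0 and 0% in endurant frogs, against 6.45, 5.05, 3.54 and 2.92% in burst-performant frogs (exact permutation p = 0.0286, the smallest possible). The isoform was listed for this same contrast, so neither the lack of overlap nor this p is support for a difference. It passed the expression filter (above 1 CPM in 2 or more frogs) only through the burst-performant frogs. The log2 fold change was −4.74 ± 1.03 (SE), with an adjusted p of 1.0 by edgeR's quasi-likelihood test and of 8.80e-04 by its exact test. Since the match to the list used that exact test, its p restates the study's selection. The total of TR41442 (36.2, 30.4, 41.6 and 23.4 CPM in endurant frogs, 40.0, 44.4, 33.1 and 61.8 CPM in burst-performant frogs) overlapped between groups.

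The main isoform of TR41442 was another one, i12 (942 bases), which was dominant in 7 frogs with 30.04, 46.5, 41.4 and 47.0% in endurant frogs and 30.7, 45.5, 12.7 and 34.7% in burst-performant frogs. By counts, the dominant isoform of TR41442 differed from that by TPM in all 8 frogs.

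The other matched isoform, TR56055|c1_g1_i18 (4883 bases), was joined to the *X. laevis* identifier XELAEV_18006306mg. It had 25, 0, 139 and 57 counts in endurant frogs and 0 counts after rounding in all 4 burst-performant frogs. Its share was 7.6, 0, 14.4 and 12.5% in endurant frogs and at most 0.0281% in burst-performant frogs, and frog D placed the groups in overlap (exact permutation p = 0.143). The total of TR56055 did not follow: it was 17.8, 23.2, 28.3 and 19.8 CPM in endurant frogs and 19.6, 19.1, 19.8 and 35.9 CPM in burst-performant frogs. By TPM, i9 (632 bases) was dominant in 7 frogs, but on 4 to 35 counts, and by counts no isoform was dominant in more than 2 frogs.

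The lowest similarity of the 23 genes was found in TR30313|c4_g1 (17.1%), with 29 to 183 counts per frog. Isoform i14 (2752 bases) held 95.3, 0, 18.4 and 0% in endurant frogs, against 0, 37.0, 23.3 and 0% in burst-performant frogs. Isoform i21 (2756 bases) held 0, 0, 0 and 51.1%, against 38.6, 0, 0 and 73.0%. No frog had both, and each was found in frogs of both groups. No isoform of TR30313 was detected in all 8 frogs.

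TR10313|c3_g1 (32.7%), TR8303|c4_g1 (37.2%) and TR35713|c1_g2 (37.7%) followed in similarity, with lowest counts per frog of 38, 49 and 61. In TR8303, i10 (978 bases) held 18.6, 0, 0 and 0% in endurant frogs, against 19.1, 37.5, 30.4 and 0% in burst-performant frogs (exact permutation p = 0.143). In TR35713, i6 (1313 bases) held 0, 34.9, 12.7 and 34.9%, against 44.9, 34.7, 16.9 and 43.4% (exact permutation p = 0.229). In TR10313, i4 (1856 bases) ranged from about 0 to 44.9% in endurant frogs and from 0 to 31.1% in burst-performant frogs. The groups overlapped in all 3.

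Among the genes with 23 or more isoforms, TR46406 and TR81448 (23 isoforms each) were also among the 8 most abundant, and the others were expressed at lower levels. TR80058|c1_g2 had 31 isoforms, of which 26 were detected, on 26 to 134 counts per frog, and its 8 frogs had 5 different dominant isoforms. TR58774|c0_g2 had 30 isoforms, none of them detected in all frogs, and 12 counts in frog H, so that its shares were not compared. TR26347|c2_g2 (23 isoforms) had 7 different dominant isoforms, the most of the 23 genes. TR4887|c3_g1 (25 isoforms) differed by measure: its longest isoform i6 (2697 bases) held 16.4, 17.3, 17.3 and 18.1% in endurant frogs and 15.1, 13.2, 13.9 and 27.8% in burst-performant frogs and was dominant in 6 frogs by counts, but in none by TPM.

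TR67719|c0_g1 was listed without counts in 1 library. Its 23 isoforms are short (241 to 446 bases), and it had 76, 85, 213 and 150 counts in endurant frogs, against 310, 29, 99 and 0 counts in burst-performant frogs. With a floor of 3 counts, frog H could hold up to 0.859 CPM, so that the other frogs were at least 4.85-fold (frog C) to 27.3-fold (frog B) higher, for counting error only. In all 7 frogs with counts i3 (270 bases) was dominant, with 67.9, 61.4, 42.4 and 68.6% in endurant frogs and 76.7, 65.8 and 71.5% in frogs B, C and F. The direction of the difference was not that of the groups, since frogs B and H, both burst-performant, were the highest and the lowest.

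Isoform usage was then tested for the whole assembly, as the change of each isoform relative to the rest of its gene. Of the 25 members with at least 2 isoforms above the expression filter, 0 passed an adjusted p of 0.05 in the gene-level F test of edgeR, where 0.216% of all 9739 genes tested were called. At an unadjusted p under 0.05 there were 3 (12%), namely TR26046, TR67719 and TR56055, against 6.3% of all genes. Genes with 2 to 4, 5 to 9 and 10 to 19 isoforms were at 5.58, 7.57 and 6.85%. A share of 12% is 3 genes, and no test was made of its difference from these values. TR67719 was tested on 3 of its 23 isoforms only, and frog H had 0 counts of it. In TR56055 the isoform of lowest usage p, i18, had 0 counts after rounding in all burst-performant frogs.

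The lowest adjusted p of the F test among the 29 genes was 0.0945, for TR26046. When the test of each isoform was combined by the Simes method instead, which asks whether any isoform changed, TR26046 was called (adjusted p = 0.00483, where 0.195% of genes were called by edgeR), through i6 alone (adjusted p = 0.00221 as a single isoform, where 0.0995% of isoforms were called). In the edgeR usage test of single isoforms, 14 of 268 isoforms of the 29 genes (5.22%) had an unadjusted p under 0.05, against 3.19% of all isoforms tested. Several had large log2 fold changes, such as TR35713|c1_g2_i4 (−7.62) and TR56055|c1_g1_i18 (8.39). An isoform nearly without counts in 1 group passes the expression filter only through the other group. The 5.22% is therefore not read as an excess. The called isoform i6 was the one found in frog A. Without frog A the adjusted Simes p of TR26046 was 1.0, and without frog H it was 0.0529.

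Totals of the 29 genes did not separate the groups either. By edgeR's quasi-likelihood test, 0 of 29 totals were called (adjusted p up to 0.05 and a log2 fold change of at least 2 in size), where 0.0% of 35656 totals were called. At an unadjusted p under 0.05 there were also 0, against 4.43% of all totals. Log2 fold changes ran from −0.72 to 1.22, with a median size of 0.28, against 0.35 over all totals. They were above 0 in 12 genes and below 0 in 17, but with TPM, which moved the median of all genes to 0.11 or 0.17 depending on the pseudocount, they were above 0 in 19 and below 0 in 10. The count of called members was also 0 by edgeR's exact test (where 0.126% of totals were called) and by DESeq2 (0.0932%).

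**Figure D4:**
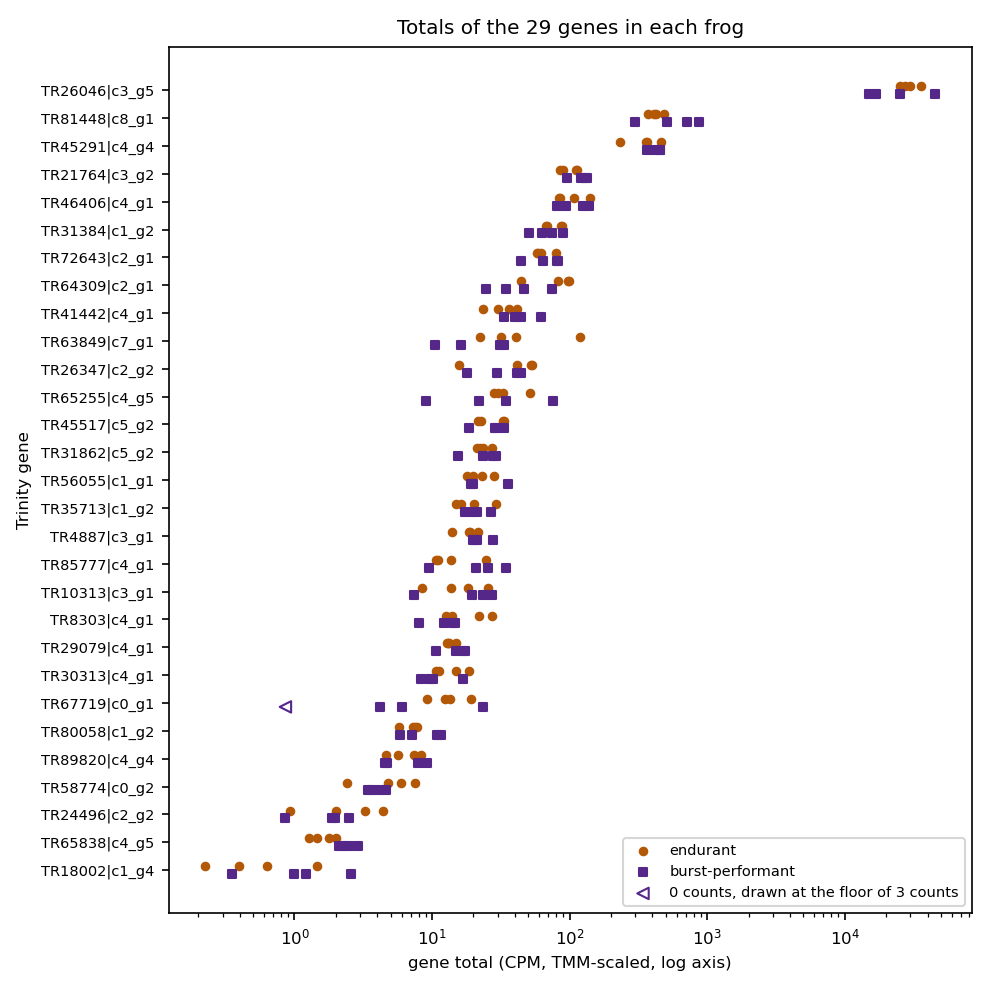
Totals of the 29 genes in each frog (x, CPM on a log axis), ordered by mean CPM, with endurant frogs (circles) drawn above burst-performant frogs (squares) in each row. The groups overlap in every gene but TR65838, and the open triangle marks frog H in TR67719, drawn at the floor of 3 counts (0.859 CPM).

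The lowest p of a total belonged to TR63849|c7_g1, with 118, 31.6, 41.0 and 22.4 CPM in endurant frogs, against 31.3, 33.2, 16.3 and 10.5 CPM in burst-performant frogs. Its log2 fold change of 1.22 ± 0.55 (SE; unadjusted p = 0.0512 and adjusted p = 1.0 by edgeR's quasi-likelihood test) was 0.47 without frog A, and the groups overlapped. TR64309 followed, with 98.8, 44.1, 81.7 and 97.5 CPM against 34.5, 24.7, 74.9 and 46.7 CPM (log2 fold change 0.83 ± 0.38, adjusted p = 1.0 by edgeR). In TR65838|c4_g5, the groups did not overlap: endurant frogs had 1.46, 1.28, 2.01 and 1.79 CPM and burst-performant frogs 2.50, 2.12, 2.90 and 2.29 CPM (exact permutation p = 0.0286). It was 1 of 29 totals without overlap, against 3.0% of all totals, and it had 6 to 47 counts per frog.

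**Figure D5:**
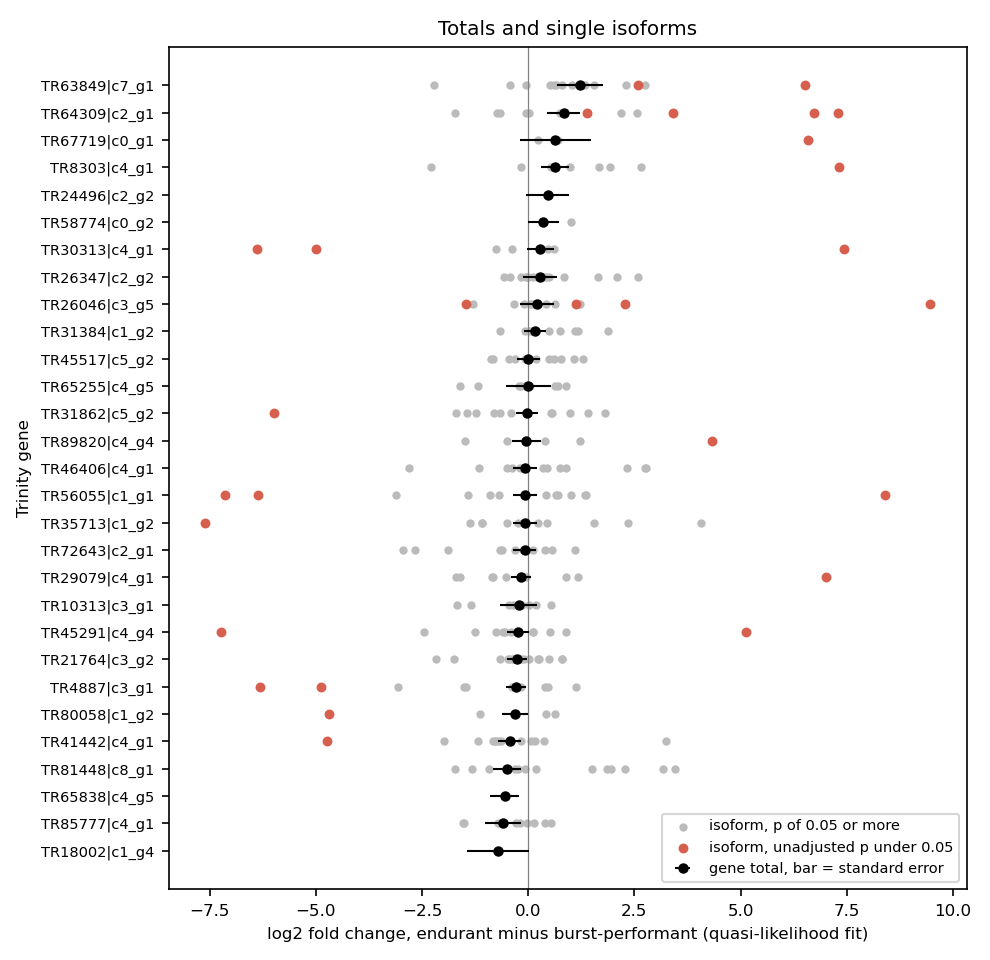
Log2 fold change (x, endurant minus burst-performant, quasi-likelihood fit) of the total of each of the 29 genes (black, bar = standard error) and of its tested isoforms (grey, or red for an unadjusted p under 0.05). Totals stay between −0.72 and 1.22 while isoforms spread to both sides, and isoforms without counts in 1 group have fitted values that depend on the prior count.

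Single isoforms spread more widely than totals, and in both directions within a gene. Of 269 isoforms above the expression filter, 0 were called by edgeR's quasi-likelihood test (0.0% of 55631 transcripts). At an unadjusted p under 0.05 there were 28 (10.4%), 16 higher and 12 lower in endurant frogs, against 3.66% of all transcripts. They came from 15 genes, and 20 of the 28 had at most 3 counts in every frog of 1 group. These 20 passed the expression filter only through the group where they were high. The 10.4% is therefore not read as an excess. Isoforms of a gene share read pairs and are not independent of each other. The exact test of edgeR called 2 of them (TR41442|c4_g1_i10 and TR56055|c1_g1_i18, where 0.196% of transcripts were called) and DESeq2 called 3 (0.28%), the third being TR64309|c2_g1_i4, with 133, 37, 106 and 38 counts in endurant frogs and 6, 0, 18 and 6 counts in burst-performant frogs. The 2 calls of the exact test restate the study's selection, because its list was matched through that test.

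Shares gave a similar account. Among isoforms with a mean share of at least 10%, 0 of 55 had shares without overlap between the groups, against 3.06% over all genes with the same count limit. Among those of at least 1% there were 6 of 342 (1.75%), against 2.69%. Lower in endurant frogs were TR26046|c3_g5_i15 and TR41442|c4_g1_i10, described above, TR80058|c1_g2_i11 and TR30313|c4_g1_i5. For TR80058|c1_g2_i11 the counts were 0, 0, 1 and 0 in endurant frogs, against 1, 4, 18 and 6 in burst-performant frogs, and frogs E and B were set apart by shares of 1.28 and 1.87% only. For TR30313|c4_g1_i5 they were 0 in all endurant frogs, against 4, 18, 16 and 1.

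Higher in endurant frogs were TR10313|c3_g1_i12 and TR63849|c7_g1_i1. TR63849|c7_g1_i1 (2306 bases) had shares of 9.93, 12.5, 13 and 8.52% in endurant frogs, against 2.66, 7.14, 0 and 7.51% in burst-performant frogs. TR10313|c3_g1_i12 had 14, 1, 1 and 0 counts after rounding, against 0 in all burst-performant frogs, and frog G was set apart only by an estimated count that rounds to 0 (a share of 0.161%). Apart from i15 of TR26046 and i1 of TR63849, these isoforms had at most 31 counts in any frog.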

How the data were processed

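Knee extensor muscle RNA of 8 male *X. allofraseri* was analysed, 1 library per frog. As the study describes, reads of all frogs were trimmed with Trimmomatic, pooled and assembled with Trinity, and Kallisto quantified each library against that assembly (the sources used here give no versions). The authors deposited, per frog, estimated counts, TPM and transcript lengths (the 8 tables list the same transcripts). Estimated counts were deposited without normalization and were rounded for the tests. TPM were deposited as Kallisto scales them, by effective length and over all transcripts of a library. No transcript sequences were used, so none are shown.

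Groups followed the performance label. Members and lists were chosen with earlier results of these data known. Tests used edgeR 4.0.16 (TMM, glmQLFit, glmQLFTest, diffSpliceDGE) in R 4.3.3 on transcripts, or totals, that exceeded 1 CPM in 2 or more frogs, endurant minus burst-performant, with Benjamini-Hochberg adjustment over all features tested, a threshold of 0.05 and, for totals and transcripts, a log2 fold change of 2. As the study states it, edgeR was run on TMM-scaled TPM, and counts were used here instead. On counts, edgeR's exact test called 109 transcripts, the number the study reports, and the quasi-likelihood test called 0. All 103 entries of the study's list were matched through the exact test on counts. Shares and log2(CPM + 1) of totals were compared by exact permutation over the 70 assignments of 8 frogs to 4 and 4, two-sided, with a smallest p of 0.0286, and without adjustment.

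Alternatives were limma 3.58.1 on log2(TPM + 1) and log2(TPM + 0.1), edgeR's exact test, DESeq2 1.42.0, other normalizations and filters, shares of counts, and leaving out each frog. The tests were also run on counts simulated over the whole assembly, with a log2 change of 4 set in 200 features. The usage F test recovered 32% of these, the Simes method 3%, the test of single transcripts 40.5% and the test of totals 89%. A lack of calls for usage or isoforms therefore does not show a lack of change. Unchanged features were called as well. The usage F test called 24 beside 64 changed genes, and the Simes method 4 beside 6. The test of single transcripts called 1 beside 81, and the test of totals 13 beside 178. A usage call, such as that of TR26046 by the Simes method, can therefore also be false. Named were the members joined to a symbol, the 8 most abundant, the 5 with most isoforms, the 4 of highest and lowest similarity, the 5 of lowest usage p and the 4 of lowest p for the total, 21 of 29 in all, and further isoforms only where named after their values were seen. A floor of 3 counts covers counting error only.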

Additional observations from a re-analysis of the deposited data

Results flagged for a closer look

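Leading isoform shares and totals of the 29 genes were examined for single frogs far from the other 3 of their group, by the gap to the nearest frog over the range of the group (above Dixon's limit for 4 samples). Shares of i1, i6, i8, i13 and i15 of TR26046|c3_g5 were added after their values were seen. Of 114 groups examined, 9 (7.89%) passed, where about 1 in 20 would by chance had no item been picked by its values. Flags of i6 are among the 9, so these rates cannot be set against each other.

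Frog A stood apart in 2 genes. In TR26046|c3_g5 its share of i6 was 9.70%, against 0 to 0.0149% in the other endurant frogs, and in the burst-performant group frog C had 0.0179% of i6 where the others had 0 (18 counts). In TR45291|c4_g4 its share of i18 was 4.09%, against 30.1 to 33.2%.

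Frog D had 48.1% of TR72643|c2_g1 as i5, where the other endurant frogs had 69.3 to 70.9%, and 30.3% of TR85777|c4_g1 as i20 on 7 counts, where they had 6.13 to 10.2%. Frog G had a total of 15 CPM in TR29079|c4_g1, against 12.9 to 13.2 CPM.

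Frog H, the shallowest library, accounted for 3 values among burst-performant frogs. Its i9 held 86.3% of TR31862|c5_g2, against 8.74 to 17.0%, on 51 counts. Its i6 held 27.8% of TR4887|c3_g1, against 13.2 to 15.1%, and its total of TR56055|c1_g1 was 35.9 CPM, against 19.1 to 19.8 CPM.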

How the results depend on the processing

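Of 69 alternatives to the main counts and medians, 62 left them within 1.5 times or within 1 SD. The Simes p called 1 member for usage, and 0 without endurant replicate 1 (frog A) and 0 without burst-performant replicate 4 (frog H), which was tried after seeing the data. Across these settings the F test of TR26046 gave adjusted p of 0.0669 to 1.0 by edgeR. The exact test, through which the study's list was matched, called 2 member isoforms, and DESeq2 called 3. The number of genes with 1 dominant isoform in all frogs was 1, and 2 by counts (TR72643 and TR31384). It ranged from 1 to 3 on leaving out single frogs, with 2 without frog F and 3 without frog H, where 26 genes had enough counts. Median similarity was 67.2% with at least 100 counts in every frog (10 genes), 52.6% by counts, 43.0% with at least 5 counts, and 43.8 to 48.3% on leaving out single frogs.

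Of 698 values of single genes and isoforms, 666 kept their direction and their side of the threshold, 5 passed it under another test and 27 changed sign, over 6 results, none of them called. Totals gave log2 fold changes with TPM + 1, with TPM + 0.1 and with library size only of 0.31 and 0.40 (TR10313, the first 2 only), 0.15, 0.16 and 0.0960 (TR35713), 0.16, 0.17 and 0.0348 (TR46406), 0.28, 0.33 and 0.0977 (TR56055), and 0.0108, 0.0159 and 0.00404 (TR72643). Those settings moved the median of all totals to 0.11, 0.17 and 0.14, against 0.00679 in the main test. Leaving out single frogs gave −0.32 to 0.0464 (TR35713), −0.25 to 0.0626 (TR46406), −0.21 to 0.196 (TR56055), −0.25 to 0.0216 (TR72643) and, for isoform i8 of TR26046, −0.24 to 1.73. No paired analysis was possible because the frogs are separate animals, and the labels give them no number or batch that ties a frog of one group to a frog of the other (replicate numbers only name them here). Depth limits shares of weakly covered genes: 6 of the 29 genes had under 20 counts in some frog, and shares from 20 counts rest on a few read pairs per isoform.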
